A study of Mus musculus with 24 samples.

Results

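6 transcription factor genes of the primed epiblast, Otx2, Pou3f1, Foxd3, Sox3, Sox4 and Sox11, were followed across 12 groups of mouse stem cell lines and embryonic tissue. They were found by gene symbol among the array probes that carry a RefSeq accession, which gave 8 probes of 27235 named probes, and 6 genes of 20660. Sox4 and Sox11 had 2 probes each and the other genes 1. RNA was measured on 24 single-colour Agilent arrays, 2 for each group, and the labels give no strain, sex or passage. Epiblast stem cells (EpiSCs), pluripotent lines derived from postimplantation epiblast, came as 5 lines. Lines 129Ba1, 129Ba2 and BNa17 had been established with a Wnt inhibitor, and 129C1 and Wt1 by the original protocol. A further group was 129C1 under IWP2, which blocks the secretion of Wnt proteins by inhibiting the acyltransferase Porcn. Mouse embryos gave epiblast (E5.5, E6.5) and, at E7.5, embryonic ectoderm, all cut out by hand. J1, also measured after treatment with 2i (inhibitors of Mek and of Gsk3), and R1 were mouse embryonic stem cell (mESC) lines, pluripotent cells taken from the blastocyst. All lines had grown on feeder layers and were separated from the feeders before RNA was prepared. The labels give no dose or duration of either treatment. They also do not say whether the replicates of a group came from separate cultures or dissections. A p-value between 2 groups therefore rests on the spread between arrays of a group, pooled over groups, and that spread may be technical.

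Naive pluripotency, the state of the blastocyst epiblast and of mESCs, gives way at implantation to the primed state, which EpiSCs hold in culture. Otx2, a bicoid-type homeodomain factor, and Pou3f1 (Oct6), a POU-domain factor, are turned on as cells leave the naive state, and Otx2 redirects the pluripotency factor Pou5f1 to new enhancers. Foxd3, a forkhead factor, is needed to keep the epiblast of the mouse embryo and later acts in the neural crest. Sox3, a SoxB1 factor related to Sox2, marks epiblast and then neural plate, and Sox4 and Sox11 are SoxC factors of neural and other progenitors.

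RefSeq sequence before the start of transcription, on GRCm38.p6, was found for 4 of the 6 genes. The 250 bases upstream of Sox4, Sox11 and Foxd3 are shown. The levels of Sox4 and Sox11 were lower on all 6 mESC arrays than on any other array, and those of Foxd3 were not. Pou3f1 and Sox3 were also lower on all 6 mESC arrays, but no such sequence was found for them. Capitals mark CCAAT, the box bound by the factor NF-Y, or its complement ATTGG, each sequence running 5′ to 3′ along the gene's strand.
Sox4 (chr13:28953700-28953949, minus strand): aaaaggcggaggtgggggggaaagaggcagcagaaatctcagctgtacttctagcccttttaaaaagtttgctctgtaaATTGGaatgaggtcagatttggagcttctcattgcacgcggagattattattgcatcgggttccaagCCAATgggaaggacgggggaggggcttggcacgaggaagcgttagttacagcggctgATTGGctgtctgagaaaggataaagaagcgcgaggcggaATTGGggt
Sox11 (chr12:27342719-27342968, minus strand): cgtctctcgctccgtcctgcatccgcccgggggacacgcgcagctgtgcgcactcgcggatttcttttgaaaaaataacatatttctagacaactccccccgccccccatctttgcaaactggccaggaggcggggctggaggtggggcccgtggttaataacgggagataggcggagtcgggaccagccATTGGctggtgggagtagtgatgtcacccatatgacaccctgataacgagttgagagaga
Foxd3 (chr4:99656049-99656298, plus strand): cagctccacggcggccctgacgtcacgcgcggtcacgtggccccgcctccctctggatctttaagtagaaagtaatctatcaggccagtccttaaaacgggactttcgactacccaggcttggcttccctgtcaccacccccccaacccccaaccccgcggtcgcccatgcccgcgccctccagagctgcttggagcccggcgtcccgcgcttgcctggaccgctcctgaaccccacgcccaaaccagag
The Sox4 window held 4 such matches, 1 of them CCAAT and 3 ATTGG, the nearest starting 8 bases before the start. The Sox11 window held 1, as ATTGG, starting 60 bases before the start, and the Foxd3 window 0. Of 32851 windows of this length in the RefSeq table, 33.8% held a match on either strand. The Sox core ACAAT (27.7% of windows) and the octamer ATGCAAAT (1.6% of windows) had 0 matches in these 3 windows on either strand. Otx2, whose levels were also not lower on all 6 mESC arrays, had 4 windows, which are not shown. In 1 of them ATTGG started 70 bases before the start. In others ACAAT or its complement started 134 or 208 bases before the start. Matches of different motifs may share end letters, the motifs were chosen after the sequences were seen, and a match is a description of the letters only. G and C made up 50.8% of the Sox4 window, 58.0% of the Sox11 window and 65.6% of the Foxd3 window.

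The arrays differed in brightness, with a 75th percentile of the processed signal of 69.3 (BNa17 replicate 1) to 253 and 36.7% to 53.2% of probes well above background. Replicate arrays correlated at r of 0.966 to 0.989, and 2 arrays a group limit the precision. The labelled cell types were checked by markers, given as the summed level of each list relative to the 75th percentile. Naive pluripotency genes summed to 9.71 to 23.0 on the untreated EpiSC arrays, 8.61 to 46.5 on the embryo arrays and 548 to 647 on the J1 and R1 arrays. Primed epiblast genes summed to 224 to 664 on the untreated EpiSC arrays and 610 to 1390 on the embryo arrays. They summed to 465 to 503 on the J1 and R1 arrays, so this sum did not separate EpiSC from mESC lines. In such a sum the brightest genes weigh most. Among them was Dnmt3b, with log2 means of 6.73 (Wt1) to 8.34 (129Ba2) in EpiSC lines, 7.92 in J1 and 7.58 in R1. Fibroblast markers, which feeder cells express, summed to 73.2 to 364 on the untreated EpiSC arrays, 6.12 to 15.8 on the embryo arrays and 69.2 to 118 on the J1 and R1 arrays, with 9 of 9 well above background on both arrays of every group of cultured cells. Visceral endoderm markers summed to 5.47 and 63.9 on the E5.5 arrays and 13.8 and 21.5 at E6.5, with 10 of 10 well above background on both E6.5 arrays. Streak and mesendoderm markers summed to 144 and 151 at E6.5, 6.19 to 11.1 in the Wnt inhibitor lines, and 53.5 to 102 in 129C1 and Wt1. Fewer cells of a type and less RNA per cell cannot be told apart in these bulk samples, and the part of any of these markers in the results was not tested.

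Levels below are log2 processed signals minus the 75th percentile of the array, so a level of 0 lies at that percentile, and levels of different genes cannot be set against each other. Where arrays of groups are said not to overlap, or to lie above others, the share of all genes doing so was not counted. The brighter probe stood for Sox4 and Sox11. Each of the 6 chosen probes was well above background on 24 of 24 arrays except that of Foxd3, with 22 of 24.

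**Figure D1:**
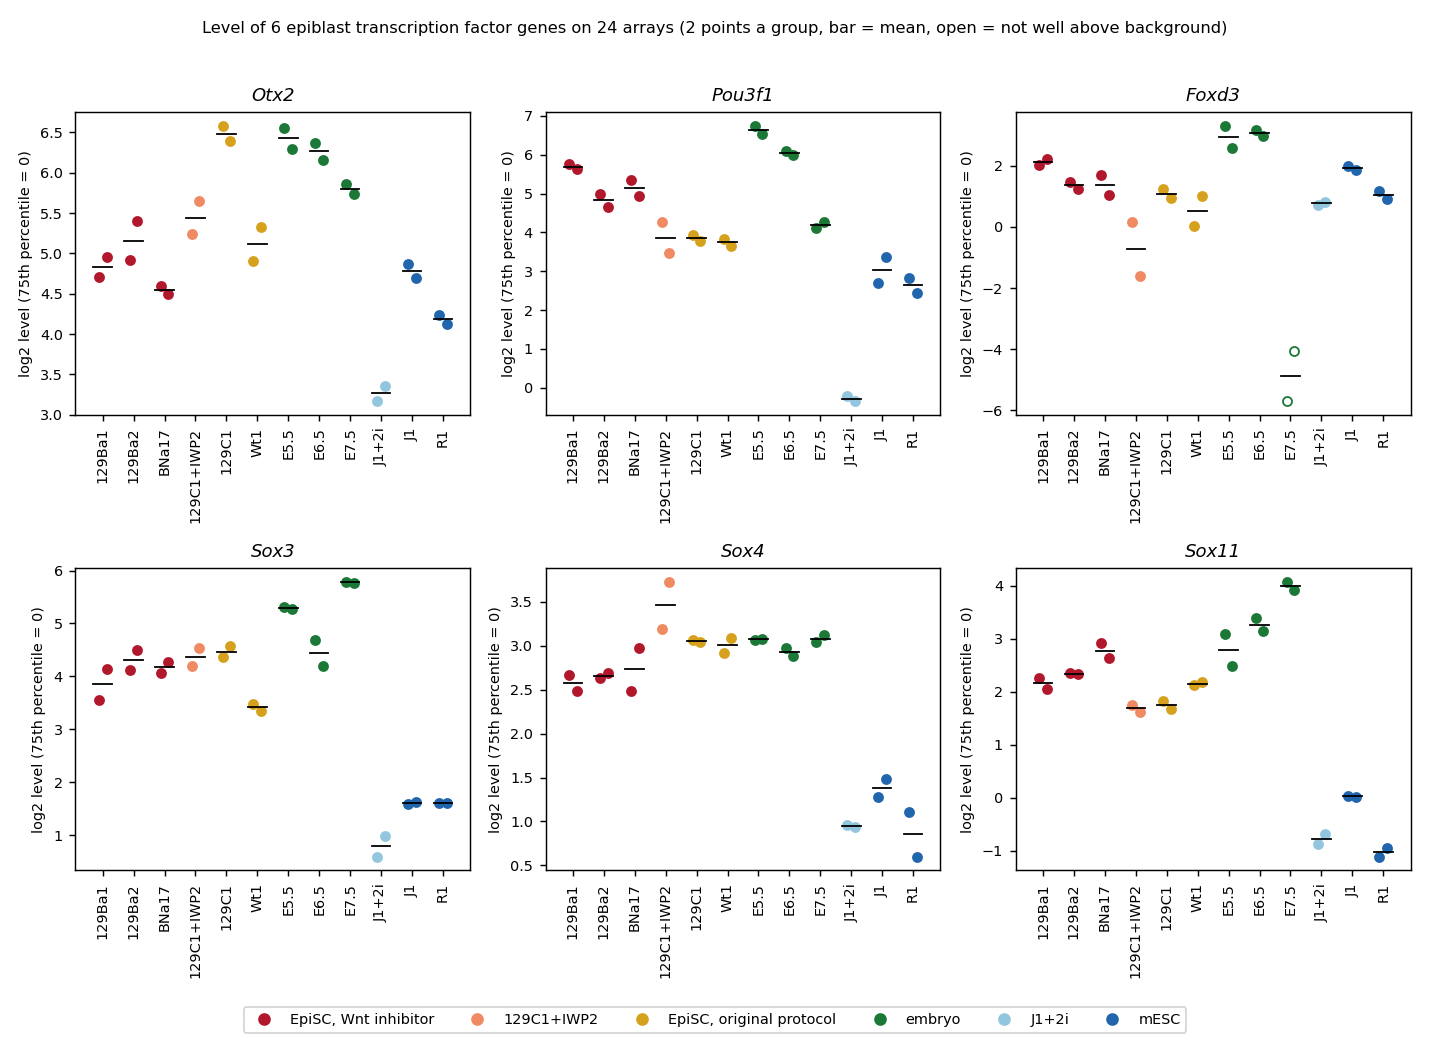
Log2 level (y axis, relative to each array's 75th percentile) of each of the 6 genes in 12 groups (x axis), with 1 point per array, a bar at the group mean and open points where the probe was not well above background. Pou3f1, Sox3, Sox4 and Sox11 lay lower on all 6 mESC arrays than on any EpiSC or embryo array. For Pou3f1 the nearest arrays were 3.36 (J1) and 3.46 (IWP2-treated 129C1). Foxd3 was not well above background on either E7.5 array.

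Otx2, the homeodomain factor, reached 4.71 and 4.95 in 129Ba1, 4.92 and 5.40 in 129Ba2 and 4.60 and 4.50 in BNa17. It was 5.24 and 5.65 in IWP2-treated 129C1, against 6.58 and 6.39 in untreated 129C1, and 4.91 and 5.33 in Wt1. It stood at 6.56 and 6.30 at E5.5, 6.37 and 6.16 at E6.5 and 5.86 and 5.74 at E7.5. Line 129C1 was thus apart from the other 4 EpiSC lines and overlapped E5.5, and its lower array was just above the higher E6.5 array. In mESCs Otx2 was 3.17 and 3.36 in J1 with 2i, against 4.87 and 4.70 in J1, and 4.24 and 4.13 in R1. The group means spanned 3.22 on the log2 scale, 9.31-fold, and the median SD of 2 arrays was 0.14. In the order of levels, J1 (mean 4.79) overlapped 129Ba1 (4.83) and was followed by BNa17 (4.55), so the Otx2 of 1 mESC line lay within the range of the EpiSC lines.

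Pou3f1, the POU factor, was highest at E5.5, with 6.74 and 6.54, then 6.10 and 5.99 at E6.5 and 4.12 and 4.28 at E7.5. The Wnt inhibitor lines had 5.75 and 5.64 (129Ba1), 5.0 and 4.66 (129Ba2) and 5.34 and 4.95 (BNa17). IWP2-treated 129C1 had 4.27 and 3.46, against 3.94 and 3.79 in untreated 129C1, and Wt1 had 3.84 and 3.65. All 6 arrays of the Wnt inhibitor lines therefore lay above all 4 arrays of untreated original-protocol lines, whose levels overlapped each other. J1 with 2i had -0.22 and -0.34, against 2.71 and 3.36 in J1, and R1 had 2.83 and 2.44. The means spanned 6.91 on the log2 scale, 121-fold, with a step of 2.91 between J1 with 2i and the next group, R1.

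Foxd3, the forkhead factor, was 2.01 and 2.22 in 129Ba1, 1.47 and 1.25 in 129Ba2 and 1.71 and 1.03 in BNa17. It was 0.15 and -1.59 in IWP2-treated 129C1, against 1.24 and 0.93 in untreated 129C1, and 0.04 and 1.01 in Wt1. The SD of the 2 IWP2-treated arrays was 1.23, the largest of this gene. Foxd3 stood at 3.30 and 2.58 at E5.5 and 3.18 and 2.97 at E6.5, while the E7.5 arrays read -5.69 and -4.05, not well above background on either. J1 with 2i had 0.73 and 0.81, against 1.98 and 1.86 in J1, and R1 had 1.19 and 0.91. Both mESC lines thus lay within the range of the EpiSC arrays, and E5.5 and E6.5 overlapped each other above all groups of cultured cells.

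Sox3, the SoxB1 factor, was 3.56 and 4.15 in 129Ba1, 4.13 and 4.50 in 129Ba2 and 4.07 and 4.27 in BNa17. It was 4.19 and 4.53 in IWP2-treated 129C1, against 4.36 and 4.58 in untreated 129C1, and 3.49 and 3.35 in Wt1. The stages ran as 5.31 and 5.28 at E5.5, 4.68 and 4.20 at E6.5 and 5.79 and 5.77 at E7.5, so E6.5 was the low point and overlapped the EpiSC lines. In mESCs it was 0.60 and 0.99 in J1 with 2i, against 1.59 and 1.64 in J1, and 1.61 and 1.61 in R1. Between Wt1 (mean 3.42), the lowest EpiSC line, and J1 (1.61) lay a step of 1.81, and J1 and R1 overlapped.

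Sox4, the first SoxC factor, varied least, with a span of 2.60. Its brighter probe gave 2.67 and 2.49 in 129Ba1, 2.63 and 2.69 in 129Ba2, and 2.49 and 2.98 in BNa17. It gave 3.19 and 3.73 in IWP2-treated 129C1, against 3.07 and 3.04 in untreated 129C1, and 2.92 and 3.09 in Wt1. The embryo arrays, with 3.07 and 3.08 at E5.5, 2.97 and 2.88 at E6.5 and 3.04 and 3.12 at E7.5, overlapped the original-protocol lines. In mESCs Sox4 was 0.96 and 0.94 in J1 with 2i, against 1.28 and 1.48 in J1, and 1.11 and 0.60 in R1, and the step from J1 up to the next group, 129Ba1, was 1.20.

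Sox11, the other SoxC factor, was 2.27 and 2.06 in 129Ba1, 2.35 and 2.34 in 129Ba2 and 2.92 and 2.63 in BNa17. It was 1.76 and 1.62 in IWP2-treated 129C1, against 1.82 and 1.68 in untreated 129C1, and 2.13 and 2.18 in Wt1. The stages gave 3.10 and 2.49 at E5.5, 3.40 and 3.14 at E6.5 and 4.08 and 3.92 at E7.5, each stage's arrays lying above those of the stage before. In mESCs it was -0.87 and -0.69 in J1 with 2i, against 0.03 and 0.02 in J1, and -1.11 and -0.94 in R1. The means spanned 5.03 on the log2 scale, 32.6-fold, and the step between J1 and the lowest EpiSC group was 1.67.

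Each comparison was tested in limma over all genes measured in it. Called genes had a p under 0.05 after Benjamini-Hochberg adjustment and a change of at least 2-fold. Differences are on the log2 scale with their standard error.

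**Figure D2:**
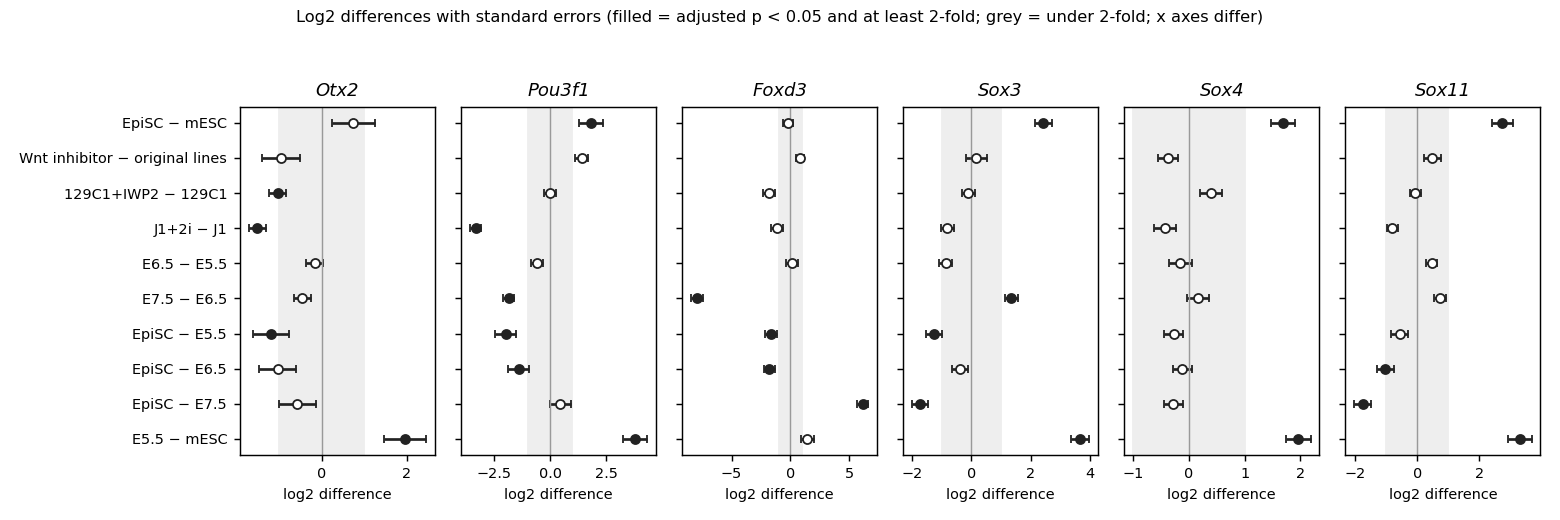
Log2 difference with its standard error (x axis, scales differ between genes) for each of the 6 genes in 10 comparisons (y axis), filled where the gene was called and on grey where the difference was under 2-fold. Pou3f1, Sox3, Sox4 and Sox11 were called higher in EpiSCs than in mESCs and Foxd3 was called lower at E7.5 than at E6.5.

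EpiSC and mESC lines were compared to see which of the factors set the primed lines apart from the naive ones. In the 5 EpiSC lines, averaged over their arrays, 4 of the 6 genes were higher than in the 2 mESC lines. The background was 25.0% of 14427 genes called, 12.9% higher and 12.1% lower (51.5% of calls were higher, against 38.3% after another background correction). Sox11 averaged 2.24 ± 0.37 in EpiSC lines and -0.50 ± 0.74 in mESC lines (SD, n = 5 and 2), a difference of 2.74 ± 0.35 (adjusted p = 0.00151). Sox3 averaged 4.05 ± 0.42 in EpiSC lines and 1.61 ± 0.00 in mESC lines, a difference of 2.43 ± 0.29 (adjusted p = 0.00115), and Sox4 averaged 2.81 ± 0.21 in EpiSC lines and 1.12 ± 0.37 in mESC lines, a difference of 1.69 ± 0.22 (adjusted p = 0.00167). For these 3 SOX genes all 10 EpiSC arrays lay above all 4 mESC arrays. Pou3f1 was higher by 1.82 ± 0.54 (adjusted p = 0.0352), with 10 of 10 EpiSC arrays above all 4 mESC arrays. This call was lost without 129Ba2, BNa17, J1 or R1 (1.62 to 2.02, adjusted p = 0.066 to 0.193), while those of the 3 SOX genes held without any 1 line. Otx2 differed by 0.74 ± 0.50 (adjusted p = 0.275) and Foxd3 by -0.19 ± 0.43 (adjusted p = 0.748), neither past the test. The median difference of the 6 genes was 1.75, against -0.01 over all genes tested. Of 17 other genes of the primed epiblast, 9 were higher and 2 lower, with a median of 1.20, among them Car14, a carbonic anhydrase (3.58 ± 0.35), Fgf5, a growth factor of the epiblast (2.33 ± 0.59), and the cadherin Cdh2 (2.34 ± 0.44). All 13 naive pluripotency genes were lower, with Klf4, a naive factor of the Krüppel-like family, at -4.90 ± 0.52. The 9 fibroblast markers had a median difference of 0.73, and of 12 neural markers 6 were higher. EpiSC and mESC arrays shared no slide or scan day, which cannot be told apart from the kind of line. With slide as a random block, fitted on arrays and not on line means, the same 4 genes were called. As no slide held both kinds of line, this fit cannot separate slide from kind of line.

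E5.5 epiblast, the tissue that follows implantation, was set against the 2 mESC lines, the same comparison with the embryo in place of the cultured primed cells. Of the 6 genes, 5 were higher at E5.5, with 27.2% of 14958 genes called, 12.6% higher and 14.6% lower (46.3% of calls were higher, against 33.0% after another background correction). Pou3f1 was higher by 3.80 ± 0.54, 13.9-fold (adjusted p = 0.000543). Sox3 was higher by 3.68 ± 0.31 (adjusted p = 2.4e-05), Sox11 by 3.30 ± 0.38 (adjusted p = 0.000155) and Sox4 by 1.96 ± 0.22 (adjusted p = 0.000133). Otx2 was higher by 1.95 ± 0.50 (adjusted p = 0.0122), a call lost without E5.5 replicate 1 (1.82, adjusted p = 0.0636) and without R1 (1.65, adjusted p = 0.0897). Both E5.5 arrays lay above all 4 mESC arrays for each of the 6 genes, and the share of all genes doing so was not counted. Foxd3, at 1.45 ± 0.58, did not pass (adjusted p = 0.0712), but was called after normexp background correction (adjusted p = 0.0139), in a fit of only the samples compared (adjusted p = 0.0282) and with a replicate block over arrays (adjusted p = 0.0175). The median of the 6 was 2.63, against -0.05 over all genes, and of the 17 other primed genes 11 were higher and 2 lower with a median of 1.57. The 2 comparisons share the mESC lines. E5.5 and mESC arrays shared no slide or scan day, which cannot be told apart from the difference between tissue and lines. Of 10 visceral endoderm markers 6 were higher at E5.5, and of 9 fibroblast markers 9 were lower.

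**Figure D3:**
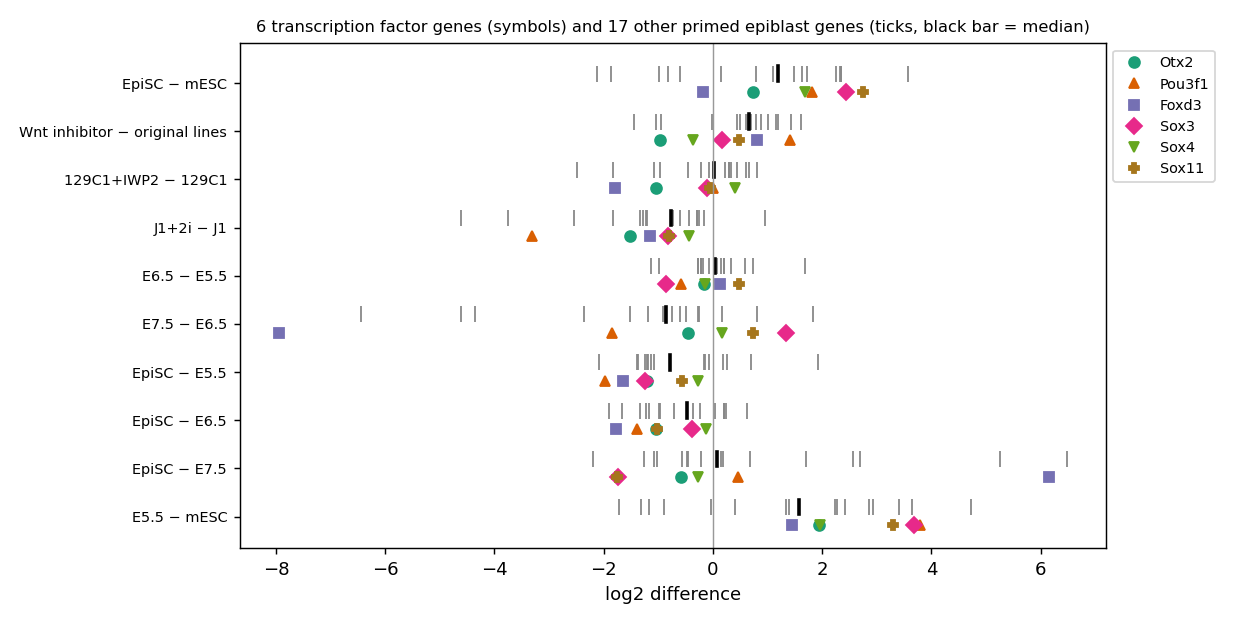
Log2 differences (x axis) of the 6 transcription factor genes (symbols) and of 17 other primed epiblast genes (grey ticks, black bar at their median) in 10 comparisons (y axis). In the EpiSC and E5.5 comparisons with mESCs the medians of the 17 genes were 1.20 and 1.57, and the fitted Foxd3 value lay at -7.94 between E7.5 and E6.5.

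The 3 lines established with a Wnt inhibitor were compared with the 2 lines of the original protocol. Of the 6 genes 0 were called by limma, with 1.57% of 14029 genes called, 0.527% higher and 1.04% lower. Without adjustment the limma p of Pou3f1 was 0.00381, and the share of all genes under 0.05 without adjustment was not counted. Pou3f1 averaged 5.22 ± 0.44 in Wnt inhibitor lines and 3.81 ± 0.09 in original-protocol lines (SD, n = 3 and 2), a difference of 1.41 ± 0.30, 2.67-fold, with an adjusted p of 0.109. With arrays as replicates, a unit that leaves out the spread between lines, its adjusted p was 9.9e-06. With slide as a random block, also fitted on arrays and not on line means, its adjusted p was 0.00439. Otx2 differed by -0.96 ± 0.44 (adjusted p = 0.339) and by -1.24 with slide as a random block (adjusted p = 0.026). Against 129C1 alone, which shared a slide with the 3 Wnt inhibitor lines, the Otx2 difference was -1.64 ± 0.32 (adjusted p = 0.1), and against Wt1 alone it was -0.27. Foxd3 (0.81 ± 0.33), Sox11 (0.48 ± 0.27), Sox3 (0.17 ± 0.36) and Sox4 (-0.37 ± 0.18) did not pass. The Sox3 difference was -0.36 against 129C1 alone. The 17 other primed genes had a median of 0.66, against 0.07 over all genes. Streak and mesendoderm markers moved with this comparison, 4 of the 10 tested lower and their median -3.28, and so did visceral endoderm markers, 3 of 6 tested lower.

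IWP2 treatment of 129C1 was compared with the untreated line to see what blocking Wnt secretion did to the factors. Otx2 fell and was the only one of the 6 called, with 3.87% of 15080 genes called, 1.39% higher and 2.49% lower. Otx2 averaged 5.45 ± 0.29 in treated and 6.49 ± 0.13 in untreated cells (SD, n = 2 each), a difference of -1.04 ± 0.20, 2.06-fold (adjusted p = 0.00525), and the arrays did not overlap. The call was lost without replicate 1 of either group (-0.83 and -0.95, adjusted p = 0.0597 and 0.065) and in a fit of these 4 arrays alone (adjusted p = 0.0606). Foxd3 differed by -1.80 ± 0.53 (adjusted p = 0.0653), by -2.68 without treated replicate 1 (adjusted p = 0.0102) and by -0.93 without treated replicate 2 (adjusted p = 0.552). It was called after normexp background correction (-1.30, adjusted p = 0.0116) and with a trended, robust variance (adjusted p = 0.0429). Pou3f1 (0.00 ± 0.26), Sox3 (-0.11 ± 0.22), Sox11 (-0.06 ± 0.18) and Sox4 (0.40 ± 0.20) did not pass. Of 17 other primed genes 2 fell, Fgf5 by 2.49 on the log2 scale among them, and none rose, with a median of 0.02, against -0.02 over all genes. Sox1, a SoxB1 factor of neural ectoderm, rose by 2.76 ± 0.26 (adjusted p = 8.69e-06). Streak and mesendoderm markers fell in 7 of 11 cases, with a median of -3.52, and of 12 neural markers 4 rose and 3 fell. Visceral endoderm markers fell in 3 of 10 cases (median -1.96), their summed level being 0.401 and 0.494 in treated and 9.52 and 8.71 in untreated 129C1, and trophoblast markers fell in 2 of 7 (median -1.37). The treated and the untreated arrays were not on the same slide, and slide cannot be told apart from treatment. Against Wt1, on the slide of the treated cells, treated 129C1 was higher by 0.33 in Otx2 (adjusted p = 0.268) and by 0.94 in Sox3 (adjusted p = 0.00528).

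Treatment of J1 with 2i was compared with untreated J1. Pou3f1 and Otx2 fell, 2 of the 6 genes, with 13.0% of 15080 genes called, 6.03% higher and 7.00% lower (46.3% of calls were higher, against 35.2% after quantile normalization). Pou3f1 averaged -0.28 ± 0.09 in 2i and 3.04 ± 0.46 in untreated J1 (SD, n = 2 each), lower by 9.96-fold at -3.32 ± 0.26 (adjusted p = 1.43e-06). Otx2 fell by 1.52 on the log2 scale, with an SE of 0.20 (adjusted p = 0.000129). Neither call was lost when any 1 array was left out. Sox11 (-0.80 ± 0.18, adjusted p = 0.00568) and Sox3 (-0.82 ± 0.22, adjusted p = 0.0128) passed the p threshold at under 2-fold, and without replicate 2 in 2i Sox3 was called (-1.02, adjusted p = 0.0201). Foxd3 (-1.15 ± 0.53) and Sox4 (-0.43 ± 0.20) did not pass (adjusted p = 0.124 and 0.13). The Foxd3 error pools all 12 groups, of which IWP2-treated 129C1 (SD 1.23) and E7.5 (SD 1.16, below background) spread most. Foxd3 was called after normexp background correction (-1.05, adjusted p = 0.018) and in a fit of only these 4 arrays (adjusted p = 0.00328), and Sox11 with the mean of all its probes (-1.13, adjusted p = 0.00326). For all 6 genes both arrays in 2i lay below both of untreated J1, and the share of all genes doing so was not counted. The median of the 6 genes was -0.98, against -0.05 over all genes. Of the 17 other primed genes 7 fell and none rose, with Fgf5 at -4.62 ± 0.22 and the kinase gene Pim2 at -3.75 ± 0.37. The 13 naive genes had a median of 0.69. Streak and mesendoderm markers fell in 8 of 11 cases. The 2 groups lay on different slides scanned on different days, which cannot be told apart from the treatment.

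Stages of the embryo were compared next. Between E6.5 and E5.5 epiblast, which shared a slide, limma called 0 of the 6 genes, with 4.87% of 15080 genes called, 2.71% higher and 2.16% lower. Sox3 averaged 4.44 ± 0.34 at E6.5 and 5.30 ± 0.02 at E5.5 (SD, n = 2 each), a difference of -0.86 ± 0.22 that passed the p threshold at under 2-fold (adjusted p = 0.0223). Without E6.5 replicate 1 it was called (-1.09, adjusted p = 0.031), and without E6.5 replicate 2 it did not pass the p threshold (-0.62, adjusted p = 0.229). Pou3f1 (-0.59 ± 0.26, adjusted p = 0.186) and Sox11 (0.47 ± 0.18, adjusted p = 0.131) did not pass. Otx2 (-0.17 ± 0.20), Sox4 (-0.15 ± 0.20) and Foxd3 (0.13 ± 0.53) did not pass. Streak and mesendoderm markers rose in 9 of 11 cases between these stages, and of the 17 other primed genes only Cdh2 was called (1.68 ± 0.23).

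Between E7.5 ectoderm and E6.5 epiblast 3 of the 6 genes were called, 2 lower and 1 higher, with 14.9% of 15080 genes called, 8.55% lower and 6.32% higher. Foxd3 was at least 81.9-fold lower at E7.5 with the processing used here (adjusted p = 1.76e-07). Its fitted difference of -7.94 ranged from -8.76 to -4.62 under alternatives, so the bound holds for this processing only. For this bound the dim side was set, array by array, to the dimmest signal that counted as well above background, or to the Foxd3 signal where that was brighter. Pou3f1 fell to 4.20 ± 0.12 at E7.5, against 6.05 ± 0.08 at E6.5 (SD, n = 2 each), a difference of -1.85 ± 0.26 (adjusted p = 0.000149). Sox3 rose to 5.78 ± 0.01 at E7.5, against 4.44 ± 0.34 at E6.5, by 1.34 ± 0.22 (adjusted p = 0.000464). These 3 calls held without any 1 array of the 2 stages. Sox11 was higher by 0.73 ± 0.18 at under 2-fold (adjusted p = 0.00858), and Otx2 (-0.46 ± 0.20) and Sox4 (0.16 ± 0.20) did not pass (adjusted p = 0.101 and 0.599). Of the 17 other primed genes 6 were lower and 1 higher, with Nodal, a signal of the TGF-beta family, at -4.62 ± 0.29 and Fgf5 at -4.35 ± 0.22. Of 12 neural markers 9 were higher, with Irx3, a homeodomain factor, at 4.51 ± 0.25 and Sox1 at 2.48 ± 0.26, while 9 of 10 visceral endoderm and 8 of 11 streak and mesendoderm markers were lower. Fibroblast markers were higher in 7 of 9 cases and trophoblast markers in 4 of 7, with Cdx2, a trophoblast and posterior factor, at 5.68 ± 0.94. The stages lay on different slides, which cannot be told apart from stage.

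EpiSC lines were last compared with each stage, as 5 line means against 2 arrays. Set against E5.5 epiblast, 4 of the 6 genes were lower in EpiSCs, with 24.1% of 14742 genes called, 14.7% higher and 9.38% lower. Pou3f1 differed by -1.98 ± 0.47 (adjusted p = 0.00974), Foxd3 by -1.65 ± 0.48 (adjusted p = 0.024), Sox3 by -1.25 ± 0.27 (adjusted p = 0.0065) and Otx2 by -1.20 ± 0.43 (adjusted p = 0.0496). Sox3 kept its call without any 1 line or array; those of Otx2, Pou3f1 and Foxd3 were lost without either E5.5 array (adjusted p = 0.0536 to 0.221). The Otx2 call was also lost without Wt1, 129Ba1, 129Ba2, BNa17 or BNa17 replicate 1 (adjusted p = 0.0515 to 0.0819) and with slide as a random block (adjusted p = 0.17). For Pou3f1, Foxd3 and Sox3 both E5.5 arrays lay above all 10 EpiSC arrays; for Otx2 the 2 arrays of 129C1 overlapped E5.5. Sox11 (-0.56 ± 0.27) and Sox4 (-0.27 ± 0.17) did not pass. The median of the 6 was -1.23, against -0.04 over all genes. Of 17 other primed genes 5 were lower and 1 higher with a median of -0.78, and Dnmt3b, a DNA methyltransferase, stood at -2.09 ± 0.39.

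Set against E6.5 epiblast, 3 of the 6 were lower in EpiSCs, with 21.9% of 14742 genes called, 12.9% higher and 9.06% lower. Foxd3 differed by -1.78 ± 0.48 (adjusted p = 0.0185), Pou3f1 by -1.39 ± 0.47 (adjusted p = 0.0442) and Sox11 by -1.03 ± 0.27 (adjusted p = 0.0161). All 3 calls were lost without either E6.5 array (adjusted p = 0.0707 to 0.197), Pou3f1 also without Wt1, 129C1 or 129Ba2, and Sox11 also without 129C1 (-0.91, adjusted p = 0.0203, under 2-fold). With slide as a random block Pou3f1 (-1.57, adjusted p = 0.0885) and Sox11 (-1.05, adjusted p = 0.0523) lost their calls. Foxd3 kept its own (-1.93, adjusted p = 0.0345), but no slide held both EpiSC and embryo arrays, so this fit cannot separate slide from tissue. Otx2, at -1.04 ± 0.43, did not pass (adjusted p = 0.0839), but was called without 129C1 (-1.35, adjusted p = 0.00187), after normexp background correction (-1.14, adjusted p = 0.047) and with a replicate block over arrays (adjusted p = 9.05e-05). Sox3 (-0.39 ± 0.27) and Sox4 (-0.12 ± 0.17) did not pass. The median over all genes was -0.10 here, and 0.00 after quantile normalization, which left 1 of the 3 calls. The median of the 6 was -1.03, and of 17 other primed genes 5 were lower with a median of -0.48. Streak and mesendoderm markers were lower in EpiSCs in 6 of 11 cases.

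Set against E7.5 ectoderm, Foxd3 was at least 23.9-fold higher in EpiSCs with the processing used here (adjusted p = 6.32e-05). Its fitted difference ranged from 2.85 to 6.98 under alternatives. Sox11 (-1.76 ± 0.27, adjusted p = 0.0017) and Sox3 (-1.74 ± 0.27, adjusted p = 0.00195) were lower. Of 14742 genes 17.6% were called, 11.4% higher and 6.15% lower, and these 3 calls held without any 1 line or array. Pou3f1 (0.46 ± 0.47), Otx2 (-0.58 ± 0.43) and Sox4 (-0.28 ± 0.17) did not pass. Sox4 was therefore called in no comparison of EpiSCs with a stage by its brighter probe, with differences of -0.27, -0.12 and -0.28. Of 17 other primed genes 5 were higher and 3 lower, with Nodal at 5.26 ± 0.37. The 3 comparisons share the EpiSC lines. EpiSC and embryo arrays shared no slide or scan day, which cannot be told apart from the difference between lines and tissue. Fibroblast markers moved with all of them, 9 of 9 higher in EpiSCs than at E5.5 and at E6.5 and 7 of 9 higher than at E7.5. Visceral endoderm markers were lower in EpiSCs in 7 of 10 cases against E5.5, and 5 of 10 against E6.5, and had a median of 0.36 against E7.5.

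The second probes of Sox4 and Sox11 were tested on their own, with p adjusted over all named probes. For Sox11 it gave 3.62 ± 0.56 between EpiSCs and mESCs and 4.03 ± 0.58 between E5.5 and mESCs, both called, and in 2i it was called where the brighter probe was under 2-fold (-1.46 ± 0.37, adjusted p = 0.00975). It was well above background on 1 of 2 R1 arrays. For Sox4 the second probe, at 1.43 ± 0.19 between EpiSCs and mESCs (adjusted p = 0.00177) and 1.79 ± 0.20 between E5.5 and mESCs, was called in the same direction as the brighter one. The 2 Sox4 probes differed over the stages: the second gave 1.22 and 1.27 at E5.5, 0.53 and 0.25 at E6.5 and 1.22 and 1.23 at E7.5, a low point at E6.5 that the brighter probe did not show. Its differences were -0.86 ± 0.24 between E6.5 and E5.5 and 0.84 ± 0.24 between E7.5 and E6.5 (adjusted p = 0.0395 and 0.0189, under 2-fold). The brighter probe gave -0.15 and 0.16. In 2i the second Sox4 probe gave -0.98 ± 0.24 (adjusted p = 0.00806), against -0.43 for the brighter one. Between EpiSCs and E6.5 it gave 0.50 ± 0.16 (adjusted p = 0.0356), against -0.12. Both of these were under 2-fold, and the difference between probes was not tested.

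**Figure D4:**
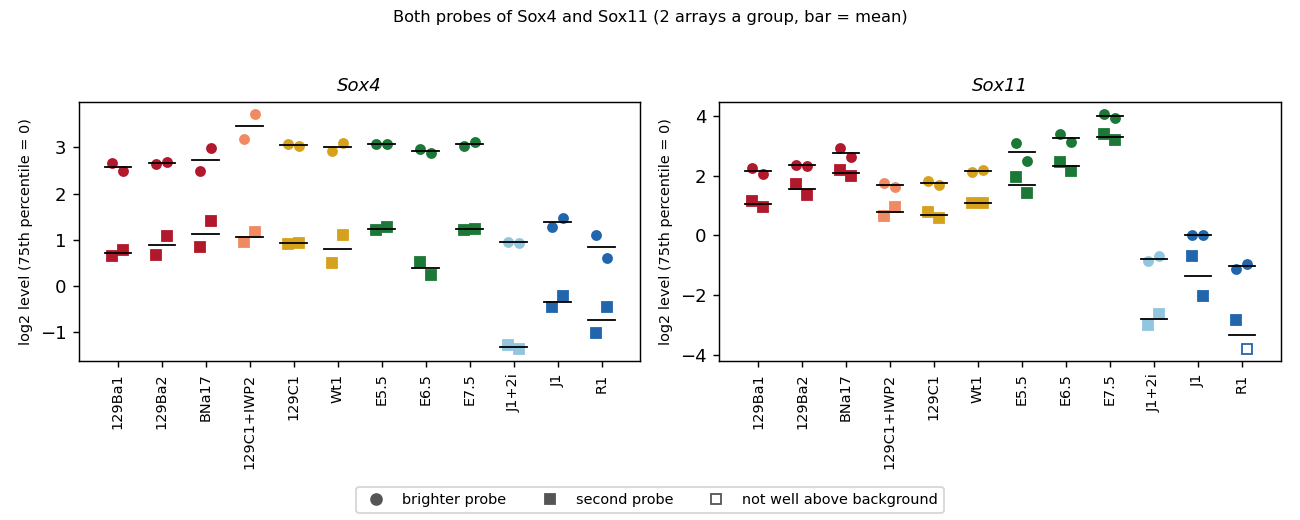
Log2 level (y axis, relative to each array's 75th percentile) of both probes of Sox4 and of Sox11 in 12 groups (x axis), with circles for the brighter probe, squares for the second and bars at the group means. Both probes of each gene were lower in the mESC groups than in every other group, and the second Sox4 probe dipped at E6.5, at 0.53 and 0.25.

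Over the 12 group means, which share arrays and slides, Sox3 and Sox11 correlated at r = 0.93, Sox3 and Sox4 at 0.91 and Sox4 and Sox11 at 0.87, given as a description. By rank, Spearman's rho of these pairs was 0.77, 0.84 and 0.55, and the highest of all pairs was 0.90, between Otx2 and Sox3. Otx2 and Sox3 followed at 0.82 and Pou3f1 and Sox3 at 0.79. Foxd3 correlated with the other 5 genes at -0.26 to 0.27, and its E7.5 value, below background, enters each of these. By rank its rho was 0.61 with Pou3f1, 0.29 with Sox11 and -0.26 to 0.15 with the other 3. Among 14430 genes, the profile most like that of Otx2 was Ripk4, a receptor-interacting kinase (r = 0.941), and next Zkscan7, Clic6, Emb and Amot. Kif7, a kinesin of hedgehog signalling (r = 0.957), was nearest to Pou3f1, before Gimap9, Slain1, Cldn6 and Timm21. For Foxd3 they were Dusp6, a phosphatase that acts on Erk, Smad7, an inhibitor of TGF-beta signalling, Slc7a7, Tdgf1, a Nodal co-receptor, and L1td1. All 5 were lowest at E7.5, where Foxd3 has only a bound, so their order rests on a value that was not measured above background. Mtx3 (r = 0.968), Smo, the transducer of hedgehog signals (r = 0.966), Fam135a, Car14 and Celf2 were closest to Sox3. The insulin receptor gene Insr (r = 0.978), Lzts2, the Wnt receptor gene Fzd2, Plekhg2 and Prr36 were closest to Sox4. Closest to Sox11 were Fam135a (r = 0.980), Rnf187, Peli2, Tmem80 and Cnksr2. Some lowest group means were dim, at -5.11 for Insr (J1), -4.47 for Cnksr2 (R1) and -4.20 for Zkscan7 (J1 with 2i). That of Rnf187 was 5.32. Otx1, never well above background, had -5.42 in J1. The part of values near background in these r was not tested. Pearson r also leaves out the size of change: Kif7 ran only from -1.76 to -0.89, while Pou3f1 spanned 6.91.

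Other genes of the same families did not all follow. Sox2, the SoxB1 factor of naive and primed cells, was lower in EpiSC lines than in mESC lines (-1.85 ± 0.25, adjusted p = 0.00194) and lower at E5.5 than in mESCs (-1.90 ± 0.26, adjusted p = 0.000388). Sox1 was higher in EpiSC lines than in mESC lines (2.86 ± 0.86, adjusted p = 0.037) and than at E5.5 (2.76 ± 0.76, adjusted p = 0.0188), with means of 2.07 in BNa17 and -1.69 in 129C1. Sox12, the third SoxC gene, was higher in EpiSC lines than in mESCs (1.28 ± 0.33, adjusted p = 0.0217), with 1 of 4 mESC arrays well above background. Of 10 other SOX genes tested between EpiSCs and mESCs, 3 were higher and 2 lower. Of 7 other POU genes 0 were higher and 2 lower, and Pou5f1, the core pluripotency factor, did not pass (-0.52 ± 0.26, adjusted p = 0.157). Otx1, the closest relative of Otx2, was not well above background on any of the 24 arrays.

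**Figure D5:**
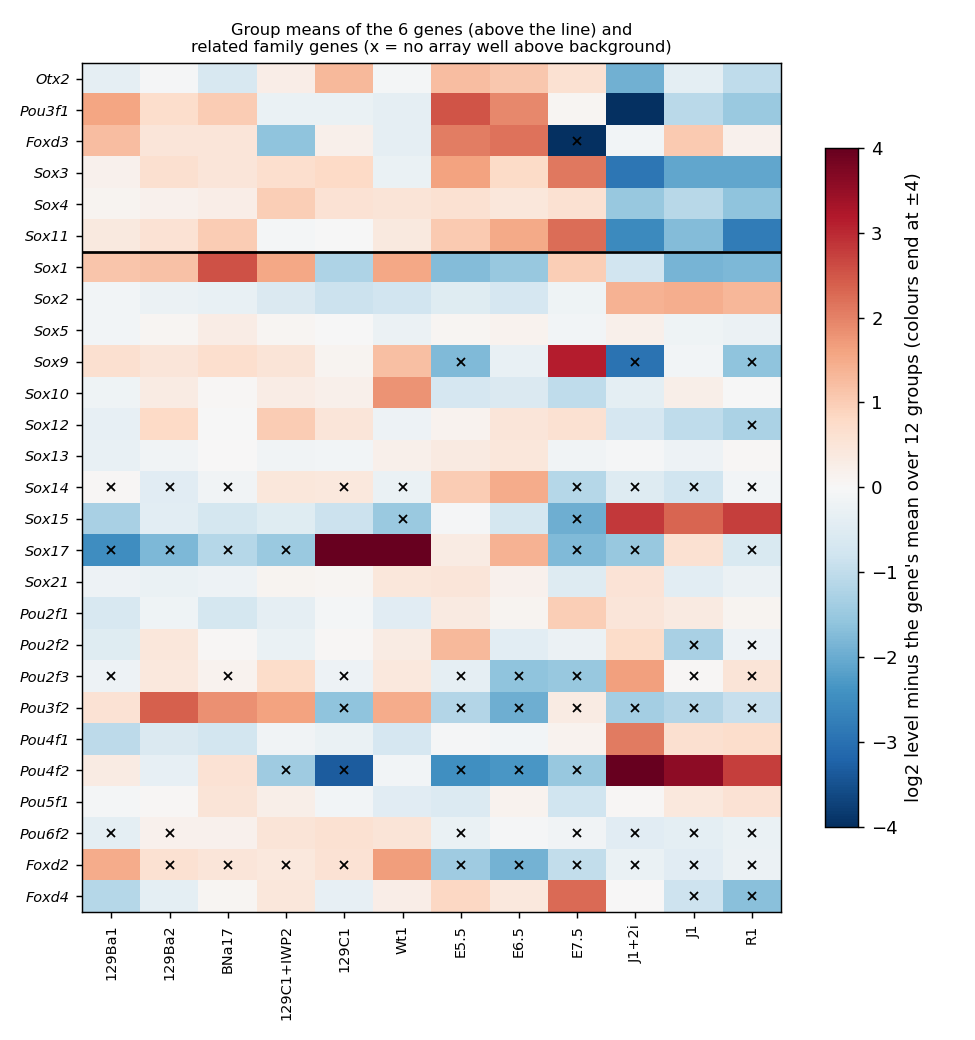
Mean log2 level in 12 groups (x axis) of the 6 genes, above the line, and of 21 of 34 related SOX, POU, Otx and Foxd genes that were well above background on both arrays of a group, each minus the gene's own mean over the groups (colour, ending at 4 either way). A cross marks groups where no array was well above background, and Sox2 ran opposite to Sox3 between the mESC groups and the others.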

How the data were processed

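RNA from 24 samples was measured on single-colour Agilent arrays. The authors deposited scanner output with intensities, background-corrected per the file headers, made with Agilent Feature Extraction 10.5.1.1 per the submitters' processing notes. The authors' deposited value table, on a log2 scale, served as an alternative. Scaling, here, was log2 of the processed signal minus the 75th percentile of each array. Probes were named by RefSeq accession, with 1 probe per gene (the highest mean; 20616 genes). Genes were tested where both arrays of some group in the fit were well above background, with limma 3.58.1 in R 4.3.3, lines being averaged over arrays where lines were compared. Samples were grouped by their labels. Normexp ran on median signals, since no mean signal was in the files. The fit was tested on simulated data. Members and gene lists were chosen with earlier results of these data known. Named were the 6 genes, Sox1, Sox2, Sox12, Pou5f1, Otx1 and Fgf5, up to 3 called genes a list with the largest change and, for each of the 6, the 5 genes with the highest Pearson r. Figures used matplotlib 3.10.9. Alternatives changed background correction, normalization, filter, probe choice, variance model, fold minimum, unit of replication, slide block and samples. The results of 1 gene of the primed epiblast list are not reported here.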

Additional observations from a re-analysis of the deposited data

How the results depend on the processing

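Of 1020 differences of the 6 genes recomputed under alternatives, 938 kept direction and call, 43 lost the call, 22 gained one and 17 turned direction. The cause was not tested. For Wnt inhibitor against original-protocol lines 0 of the 6 genes were called, 1 with arrays as replicates and 2 with slide as a random block. For IWP2, 1 became 2 by normexp or a trended, robust variance, 0 in a fit of the arrays compared, 0 within the slide against Wt1 and 0 to 1 when leaving out an array. For 2i, 2 became 4 with no fold minimum and 3 by normexp, over all probes or in a fit of the arrays compared. For E5.5 against mESCs, 5 became 4 to 6. For E6.5 against E5.5, 0 became 1 with no fold minimum and 0 to 1 when leaving out an array. EpiSCs against E5.5 kept 1 to 4 of 4, and against E6.5 0 to 3 of 3, when leaving out a line or array, with 1 left after quantile normalization and 1 with slide as a random block. Turned values were, for IWP2, Otx2 0.33 and Sox3 0.94 within the slide against Wt1, Pou3f1 -0.08 by normexp, 0.00 in the authors' deposited table and -0.40 to 0.41 when leaving out an array, Sox11 0.03 over all probes and -0.13 to 0.01 leaving out an array, and Sox3 -0.28 to 0.05. Sox3 between Wnt inhibitor and original-protocol lines was -0.05 with slide as a random block, -0.36 within the slide against 129C1 and -0.36 to 0.69 leaving out a line. Foxd3 ranged from -0.63 to 0.24 between EpiSCs and mESCs and from -0.23 to 0.49 between E6.5 and E5.5, and Sox4 between EpiSCs and E6.5 was 0.02 after quantile normalization and 0.19 over all probes. Differences between replicates 1 and 2 correlated between groups at a median r of -0.01 (-0.34 to 0.42, 17 of 66 pairs over 0.1). Pairing by replicate number was not seen over the groups as a whole, and for single pairs of groups it was not tested. The replicate block, fitted on arrays, added the call of Pou3f1 for Wnt inhibitor lines (1 called gene). It also added Foxd3 for E5.5 against mESCs (6) and Otx2 for EpiSCs against E6.5 (4). Called genes over the whole array ranged widely, from 40 to 1542 (220 as reported) for Wnt inhibitor lines and 273 to 845 (584) for IWP2. Treated 129C1 against Wt1, also the source of the Otx2 0.33 and Sox3 0.94 above, compares different lines and gave 2100. Called genes numbered 613 to 3955 (1965) for 2i, 300 to 1346 (734) for E6.5 against E5.5 and 866 to 4142 (2242) for E7.5 against E6.5. They ranged from 1943 to 5333 (3612) for EpiSCs against mESCs, 2046 to 5665 (4069) for E5.5 against mESCs, and 1675 to 5734 (3547), 1749 to 5445 (3234) and 1290 to 4243 (2589) for EpiSCs against E5.5, E6.5 and E7.5. Leaving out BNa17 replicate 1 was added after seeing the data. Foxd3 at E7.5, not well above background on either array, has only a bound, which holds for the processing used here.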

Other observations

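The 2 E5.5 arrays differed in visceral endoderm markers, which summed to 5.47 on replicate 1 and 63.9 on replicate 2, relative to the 75th percentile. On the same arrays Foxd3 was 3.30 and 2.58 and Sox11 3.10 and 2.49 in log2 level, while Sox3 was 5.31 and 5.28 and Sox4 3.07 and 3.08. The 2 E7.5 arrays differed in streak and mesendoderm markers, which summed to 18.2 and 55.2, with Otx2 at 5.86 and 5.74 and Sox3 at 5.79 and 5.77. The part of these markers in the levels was not tested.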
